A study of Gallus gallus with 8 samples.

Results

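Regions of the chick retina genome that carried the transcription factor Oc1 at both digestion times of a CUT&RUN experiment, and Otx2 at neither, are described here. CUT&RUN tethers a nuclease to an antibody on chromatin, so that DNA around the bound protein is cut out and sequenced. Peaks of 4 deposited lists were joined into regions wherever they overlapped by 1 base or more, and peaks on chromosome M were left out. Of 22265 regions, 2400 had a peak in both Oc1 lists and in neither Otx2 list, which is 10.8% of all regions (Wilson 95% interval 10.4 to 11.2%). The members were chosen by the presence and absence of peaks in the 4 lists.

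All libraries came from dissociated wild-type retina of Gallus gallus at stage E5, with no allele or agent beyond the antibody and the time of digestion. The 4 lists analysed are Oc1 at 30 min, Oc1 at 25 min, Otx2 at 30 min and Otx2 at 25 min, with 1 library each. The series also has 4 libraries of H3K27me3 and IgG, which were not analysed here. The labels do not say whether libraries of different times came from separate retinas, so neither a spread between preparations nor a test between the antibodies can be given.

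Oc1 (Onecut1, also known as HNF6) is a transcription factor with a cut domain and a homeodomain. In the vertebrate retina, Onecut factors are known for their roles in horizontal cells, ganglion cells and early cone photoreceptors. Otx2 is a homeodomain factor needed for photoreceptor fate, and cells that hold both factors include the precursors of cones and horizontal cells. Whole retina mixes these cells with others, and the lists do not say in which cells a region was bound. In such bulk chromatin, fewer cells with a bound site and less binding per cell cannot be told apart.

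For Oc1, the list of 30 min held 10664 peaks and that of 25 min 9777. For Otx2, the lists held 9044 and 11495 peaks. Sequencing depth is not listed, but fold enrichment and p together fix the number of reads at each summit. From these, depth was 0.985 and 0.967 reads per kb in the Oc1 libraries at 30 and 25 min, and 1.19 and 1.17 in the Otx2 libraries, in units of the genome size used in peak calling. The median peak rested on 6 to 8 reads, and the smallest on 3 or 4. For Otx2 at 30 min the recovered scale on read counts was 0.845, against 1 in the other lists. Its smallest peak rested on 4 reads, against 3 in the others. Depth is thus not read as a measure of how readily Otx2 peaks were called. A list holds nothing below its threshold, so the absence of an Otx2 peak is not an absence of Otx2 reads. Peaks were also narrower in the Otx2 lists, with medians of 181 and 250 bases at 30 and 25 min, against 308 and 291 bases in the Oc1 lists. The lowest width differed too, at 107 and 157 bases in the Otx2 lists and 200 and 194 bases in the Oc1 lists. Widths are thus not read as a trait of either factor.

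Among the 6036 regions with Oc1 at both times, the 2400 without Otx2 made up 39.8% (38.5 to 41.0%). The others were 2298 regions with Otx2 at both times and 1338 with Otx2 at 1 time. Absence of Otx2 was most frequent where Oc1 was weak. The 6036 regions were ranked by the smaller of their 2 Oc1 −log10 q values and cut into 10 groups of 603 or 604. In the strongest group 13.9% had no Otx2 peak (11.4 to 16.9%), and in the next strongest 27.6% (24.2 to 31.3%). In the weakest group 49.2% had none (45.2 to 53.2%), and in the next weakest 57.6% (53.6 to 61.5%). The share with Otx2 at both times ran the other way, at 69.2% in the strongest group and 27.8% in the weakest. Oc1 strength is part of the readout that chose these regions, so this is a description of where they lie among Oc1 regions.

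**Figure D1:**
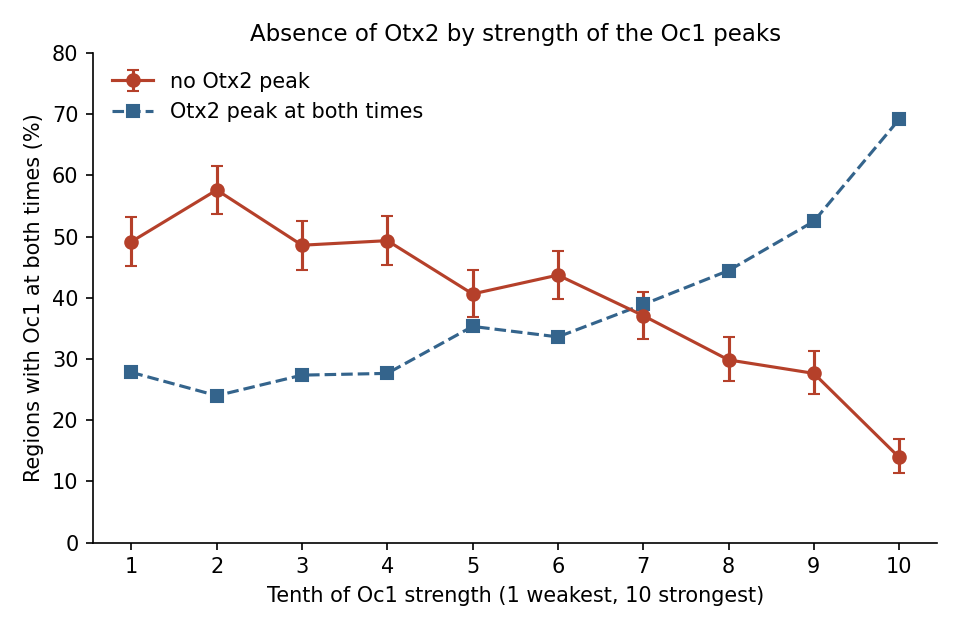
Share of the 6036 regions with Oc1 at both times that had no Otx2 peak (circles, with Wilson 95% intervals) or an Otx2 peak at both times (squares), in 10 groups of Oc1 strength on the x axis, from weakest to strongest. The share without Otx2 is 13.9% in the strongest group and 49.2% in the weakest, and the curves cross between group 6 and group 7.

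The fold enrichment of Oc1, which is the pile-up of reads at a summit over the local background, had a median of 6.17 at 30 min and 5.91 at 25 min in the members. In the 3636 regions with Oc1 at both times and Otx2 at 1 or both, the medians were 7.52 and 7.32. The lowest and highest member folds were 3.05 and 27.5 at 30 min, and 3.09 and 25.8 at 25 min. A fold of at least 10 at both times was reached by 105 members, or 4.38% (3.63 to 5.27%), where 11.1% of all regions with Oc1 at both times reached it. Summit reads had a median of 8 at 30 min and 7 at 25 min. At least 6 reads at both times were found in 63.8% of members, against 80.7% of the Oc1 regions with Otx2. At least 10 reads at both times were found in 17.3% and 38.5% of these classes. At the other end, 240 members had at most 5 reads at both times, a count not taken for other classes.

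Oc1 peaks in the members had a median width of 333 bases at 30 min and 303 bases at 25 min. In regions of all 4 lists, the Oc1 medians were wider, at 424 and 391 bases. In regions with Oc1 at 1 time only and no Otx2, they were narrower, at 231.5 and 219 bases. The rule sorts regions by overlap of peaks, which depends on peak width, so these differences are a description. Width also rose with strength. At 30 and 25 min, the medians were 404 and 367.5 bases in the 800 strongest members by −log10 q. In the 800 weakest they were 280 and 241 bases. The narrowest Oc1 peaks in members were 200 and 194 bases at 30 and 25 min. The joined regions of the members had a median length of 393 bases. In 2373 of the 2400 members (98.9%), each Oc1 list contributed a single peak, a share not taken for other classes. Together the members covered 1001.5 kb. Summits lay near the middle of their peaks, at a median of 48.2% of the width at 30 min and 48.1% at 25 min, counted from the lower coordinate.

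The rule asked for overlapping Oc1 peaks, so their summits had to lie near each other, and the distances are given as a description. The distance between the summits of 30 and 25 min had a median of 50 bases (95% interval of the median 47 to 53), and 75.6% of members had summits within 100 bases (73.9 to 77.3%). In 118 members the peaks shared less than 50% of the shorter peak, and in 1061 the shorter peak lay wholly inside the longer. Neither count was taken for other classes. In regions of all 4 lists, the Oc1 summits lay a median of 56 bases apart (52 to 59), and 73.8% were within 100 bases. The difference in that share, members minus regions of all 4 lists, was 1.78 points (-0.71 to 4.26), an interval that includes 0. The mirror class, the 2580 regions that both Otx2 lists hold and neither Oc1 list does, had Otx2 summits a median of 54 bases apart (51 to 56).

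Summit positions matched more closely in strong members. In the 800 strongest members by −log10 q, the median distance was 40 bases (36 to 44), and 57.9% had summits within 50 bases (54.4 to 61.3%). In the 800 weakest, the median was 59 bases (54 to 65), and 43.3% had summits within 50 bases (39.9 to 46.7%). These intervals cover counting error over regions and not the spread between preparations. The weakest 800 members had a median of 6 reads at each time, and the strongest 800 had 11 at 30 min and 10 at 25 min.

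**Figure D2:**
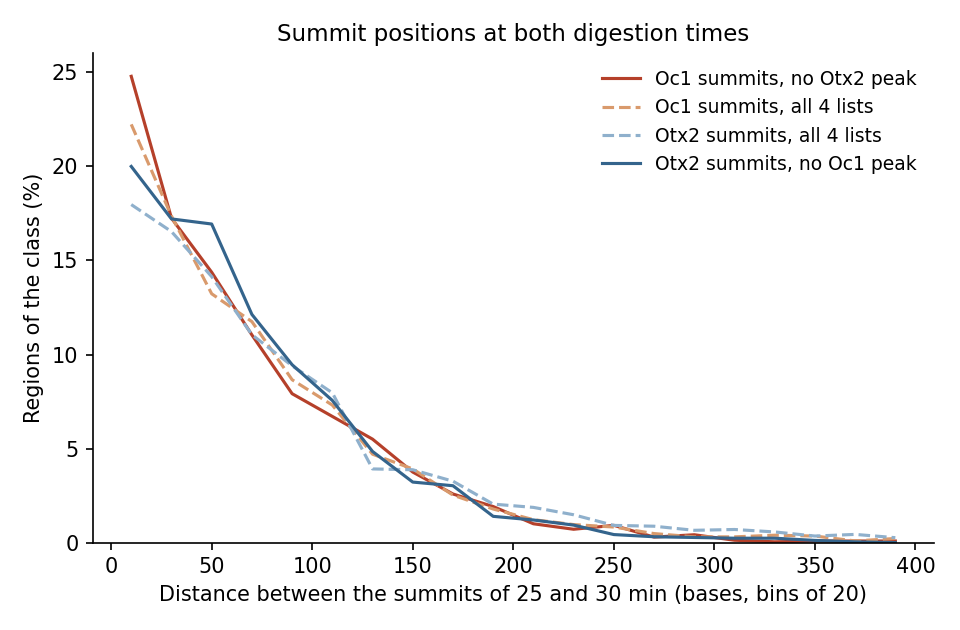
Distance in bases between the summits of 30 and 25 min, in bins of 20 bases, as a share of the regions of each class. All 4 curves are highest in the first bin and fall through the bin at 180 bases, and the medians are 50 bases for Oc1 in regions without Otx2, 56 for Oc1 and 63 for Otx2 in regions of all 4 lists, and 54 for Otx2 in regions without Oc1.

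The folds of the 2 times differed in both directions, which is given as a description and not read as a change in binding. The rank correlation (Spearman rho) of the folds at 30 and 25 min was 0.383 in the members and 0.508 in the Oc1 regions with Otx2. At 30 min, 50% of members had folds between 5.01 and 7.97, against 5.75 and 10.5 in those regions. With these unlike ranges, the 2 correlations are not read as a difference in agreement. The fold at 30 min over that at 25 min had a median of 1.02, with 50% of members between 0.827 and 1.3. In the Oc1 regions with Otx2 the median was 1.01. The fold was higher at 30 min in 52.5% of members (50.5 to 54.5%), a share not taken for other classes. It was at least 2 times as high at 30 min in 76 members (3.17%), where 3.6% of all regions with Oc1 at both times were. It was at most 0.5 times as high in 48 members (2.0%), against 3.16% of those regions.

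**Figure D3:**
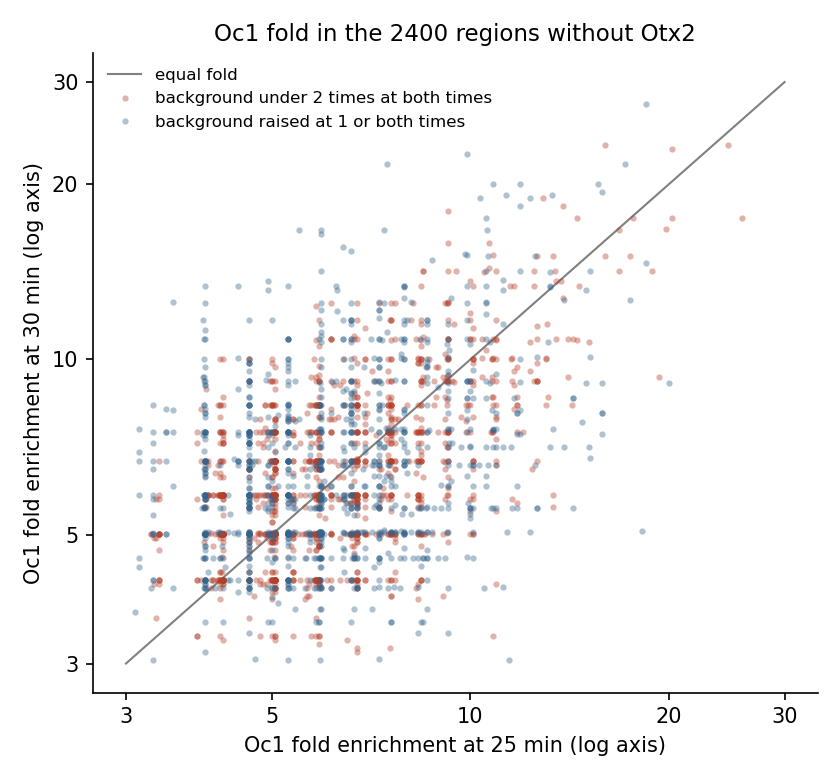
Oc1 fold enrichment at 30 min against that at 25 min (both log axes) for the 2400 members, coloured by whether the local background was under 2 times the genome-wide one at both times or raised at 1 or both. Points form rows and columns because folds rest on few whole reads, and they scatter on both sides of the line of equal fold.

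The members with the strongest Oc1 peaks at both times are given with coordinates in galGal5, the build named in the submitters' processing notes. Genes at these positions were not analysed here. Ranked by the smaller of the 2 values of −log10 q, the first lay on chromosome 26 from 1677470 to 1678223. Its fold was 23.4 at 30 min, with 27 summit reads, and 24.6 at 25 min, with 31 reads. Both summits fell on the same base, and the nearest Otx2 peak lay 621 bases from the region. This site is thus a strong and exactly repeated Oc1 site beside a separate Otx2 peak.

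Another strong member lay on chromosome 15 (415629 to 416358), with folds of 23.0 at 30 min and 20.2 at 25 min. The highest fold of any member at 30 min, 27.5, belonged to a region of chromosome 2 (80127537 to 80128300) whose fold was 18.5 at 25 min. The highest at 25 min, 25.8, belonged to another region of chromosome 2 (8389640 to 8390300) whose fold was 17.5 at 30 min. The highest folds thus fell on different regions at each time.

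On chromosome 1, the member at 157080305 to 157080825 had folds of 17.5 at 30 min and 20.2 at 25 min, with summits 4 bases apart. On chromosome 17, the member at 3845217 to 3845598 had folds of 17.5 and 17.7 at 30 and 25 min, from 20 reads each, with summits 10 bases apart. On chromosome 13, the member at 13975587 to 13976063 had folds of 16.7 and 16.8, from 19 reads each, with summits 11 bases apart. At these 3 sites, position and reads repeated closely over a background near the genome-wide one at both times. The ranking by the smaller value favours regions with like values at both times.

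The member on chromosome 18 (1837881 to 1838378) had folds of 21.7 at 30 min and 17.2 at 25 min, from 25 reads each. The background there was at the genome-wide level at 30 min and 2.75 times it at 25 min. With equal reads, the lower fold at 25 min thus stood over the higher background.

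The others of the 12 strongest also differed in fold between the times. The member on chromosome 1 (69430119 to 69430581) had folds of 16.7 and 19.8 at 30 and 25 min, with summits 115 bases apart. The member on chromosome 4 (29490463 to 29491274) had folds of 14.7 and 18.5, and the nearest Otx2 peak lay 85.8 kb away. The member on chromosome 7 (28963415 to 28963856) had folds of 20.05 and 15.6. The remaining one of the 12, on chromosome 19, is described with the raised backgrounds.

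Some members differed widely in fold between the times. The largest ratio was on chromosome 3 from 42141952 to 42142244, where the fold was 12.6 at 30 min, from 15 reads, and 3.54 at 25 min, from 8 reads. Its background was 1.39 times the genome-wide one at 30 min and 8.24 times at 25 min. On chromosome 6 from 2057886 to 2058240, folds were 13.4 and 3.96 at 30 and 25 min, from 15 and 5 reads. On chromosome 23 from 4004492 to 4004880, they were 12.5 and 3.96, from 14 and 5 reads, with summits 2 bases apart. At these 3 regions 30 min had the higher fold and the more reads.

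The smallest ratio was on chromosome 4 from 40329678 to 40330216, where the fold was 3.05 at 30 min, from 8 reads, and 11.4 at 25 min, from 15 reads. The background was 9.92 times the genome-wide one at 30 min and 2.13 times at 25 min. Also on chromosome 4, from 52837194 to 52837685, folds were 5.08 and 18.3, over backgrounds of 9.92 and 1.38 times. On chromosome 1 from 8634682 to 8634992, folds were 3.34 and 10.8, from 3 and 12 reads. In that last region the background was within 1.07 times the genome-wide one at both times.

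The local background, recovered from fold and p, was at least 2 times the genome-wide one in 18.9% of members at 30 min (17.4 to 20.5%) and in 37.5% at 25 min (35.6 to 39.5%). Some values of the background recur in many members in even steps, such as 2.75, 5.49 and 8.24 times at 25 min and 4.96 and 9.92 times at 30 min. What sets these steps was not tested. The backgrounds of 30 and 25 min had a rank correlation of only 0.147 in the members, so a raised value at 1 time is not read as a trait of the region. The upper quartile of members was 1.98 times at 30 min, just under the level of 2 times, and 2.75 times at 25 min. How far the shares of the 2 times differ thus depends on where the level is set. Over all regions with Oc1 at both times, 23.7% and 40.9% passed this level. Members minus regions of all 4 lists was -7.5 points at 30 min (-9.88 to -5.11) and -7.19 points at 25 min (-9.99 to -4.38). Members minus regions with Oc1 at both times and Otx2 at 1 time was -8.85 points at 30 min (-11.7 to -6.02). At 25 min it was -2.97 points (-6.24 to 0.29), an interval that includes 0. With at least 10 summit reads in the Oc1 lists, 41.3% of members passed this level at 30 min and 52.9% at 25 min. The share thus moved with summit reads, which were fewer in members than in the Oc1 regions with Otx2. Classes of like reads were not compared, so these differences are not read as a trait of the members. A raised background at both times was found in 231 members (9.63%), and 1277 members (53.2%) had it at neither. These 2 shares were not taken over all regions with Oc1 at both times. The median summit distance was 54 bases in the 1277 members without a raised background.

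A few members stood on very high backgrounds. The member on chromosome 19 from 54845 to 56238 had 99 summit reads at 30 min and 89 at 25 min, the most of any member. Its background was 61.5 and 59.1 times the genome-wide one, and its folds were 7.62 and 7.44. On chromosome 16, 2 members from 614446 to 614939 and from 616835 to 617261 had backgrounds of 49.6 and 44.6 times at 30 min, and of 38.4 and 41.2 times at 25 min. Chromosome 20 had one from 45259 to 45845, with backgrounds of 14.9 and 27.5 times at 30 and 25 min. Chromosome 1 had one from 101037382 to 101037706, with 24.8 and 14.8 times. The folds of the last 4 ran from 3.09 to 9.15, and the part of the background in these calls was not tested.

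By the rule no member overlapped an Otx2 peak, and the gaps beyond that varied widely. The gap that the spacing of Otx2 peaks alone would give was not computed. The gap from a member to the nearest Otx2 peak of either time had a median of 20.4 kb (18.6 to 22.1), with 50% of members between 5.41 and 60.1 kb. A gap of at most 1 kb was found for 7.33% of members (6.36 to 8.45%), of at most 10 kb for 34.7% (32.8 to 36.6%), and of at most 50 kb for 71.1% (69.2 to 72.9%). The nearest Otx2 peak was from the list of 30 min for 741 members and from that of 25 min for 1659. The list of 25 min held more Otx2 peaks and wider ones, and gaps were measured between edges. The part of number and width in this split was not tested.

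Over all chromosomes, the mirror class lay closer to the other factor. The 2580 regions of the mirror class had a median gap of 14.2 kb to the nearest Oc1 peak (13.01 to 15.4), and 41.7% lay within 10 kb (39.8 to 43.6%). Members minus these regions was -6.96 points within 10 kb (-9.64 to -4.26). At most 1 kb, the difference was -0.884 points (-2.37 to 0.611), an interval that includes 0. Within chromosomes 1 to 5, the median gaps were 28.2 kb for members (24.1 to 30.8) and 18.2 kb for the mirror class (16.004 to 20.2). Within chromosomes 11 and up, they were 12.7 kb (11.1 to 15.1) and 11.2 kb (9.94 to 12.9), with intervals that overlap. The intervals also overlapped on chromosomes 6 to 10, at 17.5 kb (14.8 to 21.4) and 12.4 kb (9.67 to 14.9), and on Z, at 32.9 kb (21.4 to 58.0) and 31.2 kb (19.98 to 39.2). The mirror class had the lower median in each of these chromosome groups, with separate intervals on chromosomes 1 to 5. On chromosomes 6 to 10 the intervals shared only the stretch from 14.83 to 14.87 kb. An overlap of intervals does not show that the medians are alike. Regions with Oc1 at only 1 time and no Otx2 had a median gap of 21.7 kb to Otx2 (20.5 to 23.0), close to that of the members. Among the members, gaps hardly moved with strength, at 21.2 kb (18.4 to 25.0) in the strongest 800 and 20.2 kb (17.4 to 23.4) in the weakest 800.

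**Figure D4:**
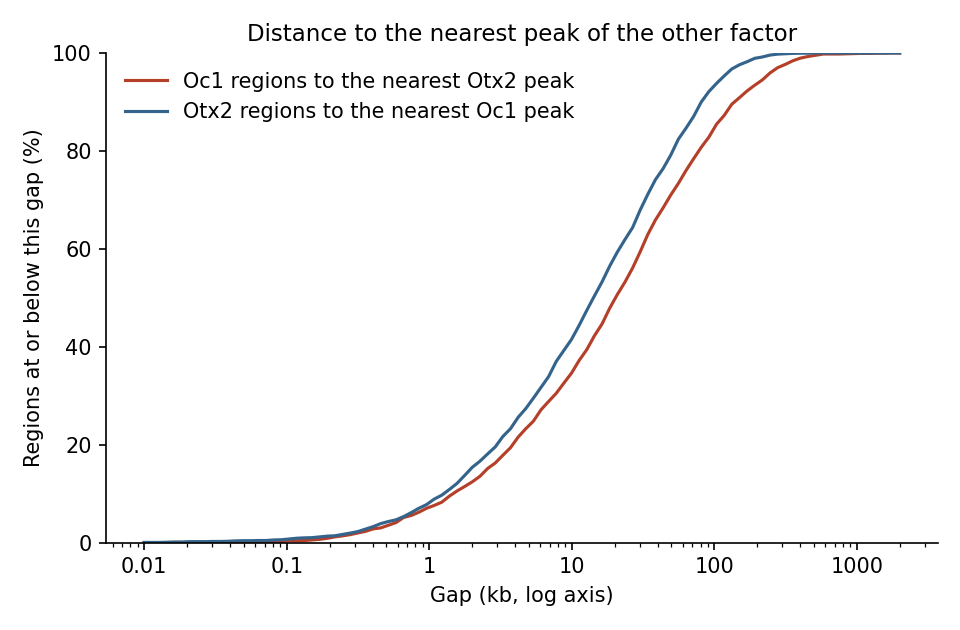
Cumulative share of regions by the gap in kb (log axis) to the nearest peak of the other factor, for the 2400 Oc1 regions without Otx2 and the 2580 Otx2 regions without Oc1. The curves run together up to about 1 kb, and beyond it the Oc1 regions lie lower, with 34.7% against 41.7% within 10 kb.

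Few regions lay near the limit of the rule. Just inside it, the members nearest to an Otx2 peak had gaps of 16 bases (chromosome 14, 3226157 to 3226660), 23 bases (chromosome 21, 723784 to 724065) and 36 bases (chromosome 5, 48128830 to 48129051). Next came gaps of 69 bases (chromosome 9, 4088475 to 4088847) and 80 bases (chromosome 5, 53710169 to 53710393). All 5 of these Otx2 peaks were from 25 min, the list with more and wider Otx2 peaks. The Oc1 folds of these members ran from 3.30 to 12.5. In all, 3 members had an Otx2 peak within 50 bases and 81 (3.38%) within 500 bases. Of the mirror class, 4.11% had an Oc1 peak within 500 bases. Of regions with Oc1 at 1 time only and no Otx2, 5.08% had an Otx2 peak that near. Members minus these last regions was -1.71 points (-2.59 to -0.745).

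Just outside the limit, the shortest overlaps of an Oc1 and an Otx2 peak in regions with Oc1 at both times were 16, 20, 25, 34 and 36 bases. They lay on chromosomes 9 (20595842 to 20596617), 3 (87841874 to 87842395), 11 (3954305 to 3954694), 14 (36419 to 37903) and 13 (7188875 to 7189385). Each had Otx2 in 1 list only, with folds of 5.02 and 4.78 at 25 min on chromosomes 9 and 3, and of 7.01, 6.75 and 5.33 at 30 min on the others. Only 6 such regions were joined by at most 50 bases.

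The members farthest from Otx2 all lay on chromosome Z. The region from 29062208 to 29062568 was 1748 kb from the nearest Otx2 peak and had Oc1 folds of 5.67 at 30 min and 8.42 at 25 min. The region from 28692286 to 28692702, 1378 kb away, had folds of 5.85 and 6.67. The region from 28272976 to 28273553, 959 kb away, had folds of 12.5 and 10.6. These 3 neighbours share 1 stretch of the chromosome in which the Otx2 lists held no peak. Chromosome Z held 119 members, or 4.96% of them, as it held 4.95% of all regions.

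The chicken genome combines a few large chromosomes with many small, gene-dense microchromosomes, and the members were spread over 31 chromosomes as named in the lists. Chromosomes 1 to 5 held 52.3% of members (50.3 to 54.3%), against 47.1% of regions of all 4 lists and 42.7% of the mirror class. Chromosomes 11 and up held 25.8% of members (24.1 to 27.6%), against 29.8% and 36.3% of these classes. Of all regions, 49.1% lay on chromosomes 1 to 5 and 28.9% on chromosomes 11 and up. Members minus the mirror class came to -10.4 points on chromosomes 11 and up (-12.98 to -7.88), and members minus regions of all 4 lists to -3.93 points (-6.49 to -1.37). With at least 10 summit reads in the Oc1 lists, the second difference was -0.99 points (-6.01 to 4.28), and with at least 6 reads in all lists -2.53 points (-5.48 to 0.42). Members minus the mirror class stayed below 0 with its interval in all 13 settings it was computed for. Of the regions with Oc1 at both times and Otx2 at 1 time, 27.7% lay on chromosomes 11 and up. Members minus these regions was -1.82 points (-4.82 to 1.12), an interval that includes 0.

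Most single chromosomes, but not all, went the same way. On 4 of chromosomes 1 to 5 the share of members was above that of the mirror class, and chromosome 5 held 5.88% of members and 6.78% of the mirror class. Of the 20 chromosomes from 11 up, 17 held a lower share of members than of the mirror class, and 3 (16, 22 and 32) a higher one. The gaps on chromosomes 2 and 26 were picked as wide ones, at 12.6% of members and 8.06% of the mirror class on chromosome 2, and 0.792% and 2.87% on chromosome 26. Among the 19 chromosomes with at least 100 regions of Oc1 at both times, the share of these without Otx2 ran from 30.8% on chromosome 9 (24.4 to 38.1%) to 47.1% on chromosome 4 (42.6 to 51.6%). Over all chromosomes it was 39.8%. The chromosomes at both ends of this range were picked for their values.

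Members were less often grouped than the mirror class. Another member lay within 50 kb of 35.8% of members (33.9 to 37.8%), whereas 54.1% of Otx2 regions without Oc1 had another of their class that near (52.2 to 56.1%). For regions of all 4 lists the share was 48.1% (46.0 to 50.1%). The 3 classes are of similar number, at 2400, 2580 and 2298. Regions with Oc1 at both times and Otx2 at 1 time, a smaller class of 1338, had a lower share than members, at 24.8% (22.6 to 27.2%). Within chromosomes 1 to 5, the shares were 31.6% of members and 44.5% of the mirror class, and within chromosomes 11 and up they were 43.2% and 69.6%. These shares depend on how many regions a class holds and moved with the settings. The members' share was 62.7% with the lists of 30 min alone and 11.4% with at least 10 Oc1 reads, where members minus the mirror class was -6.37 and -53.2 points, against -18.3 points as first given. The nearest region of any kind held an Otx2 peak for 50.3% of members (48.3 to 52.3%), while 63.2% of all regions held one. It had Oc1 at 1 time only for 33.8% of members (31.9 to 35.7%), and 26.0% of all regions were of that class. It was another member for 15.9% of members (14.5 to 17.4%), and members made up 10.8% of all regions.

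Members linked by gaps of at most 50 kb formed 365 groups of 2 or more, beside 1540 that stood alone. Only 9 groups had 5 or more members, against 43 in the mirror class and 24 among regions of all 4 lists. The largest groups of these classes had 15, 13 and 9 regions. The single largest group was thus one of members, although members grouped less often than the mirror class and the regions of all 4 lists.

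That group lay on chromosome 1 from 48092910 to 48199850, with 15 members in 107 kb. Gaps between its neighbouring members had a median of 2.71 kb and a maximum of 28.0 kb. Folds ran from 3.59 to 15.2 and summit reads from 4 to 22, and the median fold was 5.85 at 30 min and 6.67 at 25 min. The strongest member, from 48161718 to 48162347, had folds of 14.2 at 30 min and 15.2 at 25 min. The members at the ends of the group were also strong, with folds of 10.9 and 13.5 in the first, and of 9.35 and 14.1 in the last. The median background was 1.09 times the genome-wide one at 30 min and 1.12 times at 25 min, so most of these peaks stood on a low background.

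The stretch held 29 regions in all, and none had Otx2 at both times. Besides the 15 members, 11 regions had Oc1 at 1 time only. The other 3 had Oc1 at both times and an Otx2 peak at 25 min alone, with Otx2 folds of 4.64, 5.07 and 5.91 from 5 or 6 reads. Oc1 folds in these 3 were 5.56, 15.9 and 18.4 at 30 min and 8.46, 12.6 and 15.2 at 25 min. The Oc1 lists held 25 and 22 peaks in the stretch at 30 and 25 min, against 0 and 3 in the Otx2 lists. Groups of this kind were picked for their number of members, so these counts are a description.

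**Figure D5:**
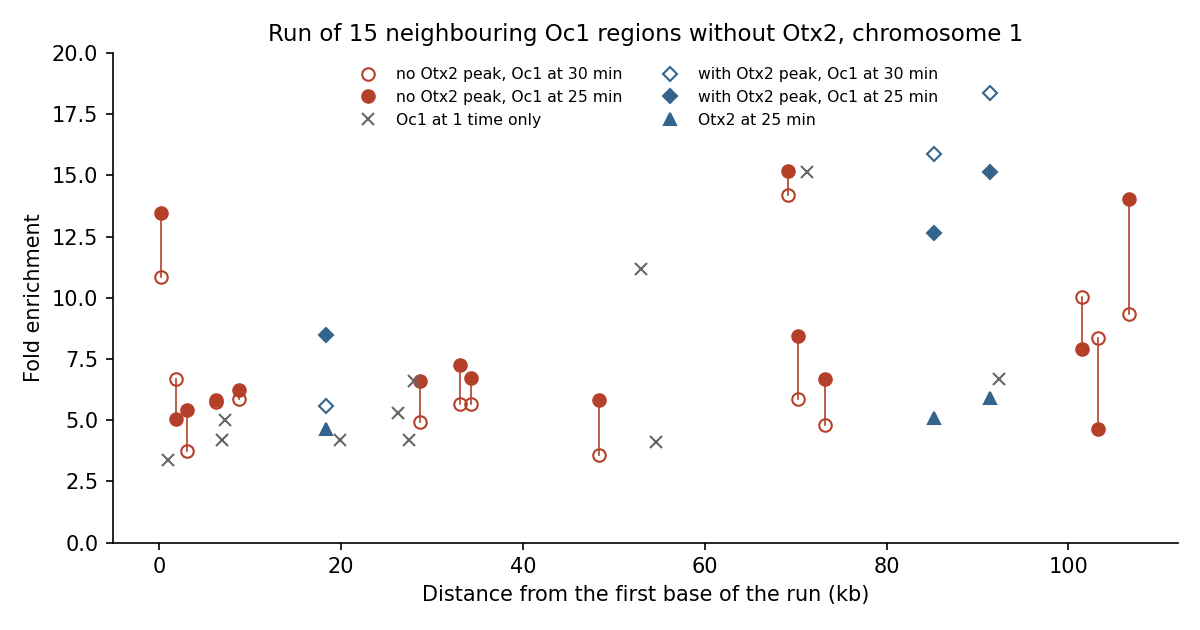
Fold enrichment along the group of 15 members on chromosome 1, by distance in kb from its first base. Red circles are Oc1 in the members at 30 min (open) and 25 min (filled), crosses are regions with Oc1 at 1 time only, and blue marks are the 3 regions that also had Otx2, with Oc1 as diamonds and Otx2 as triangles between 4.64 and 5.91.

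The next largest groups were of mixed company. On chromosome 6 from 8289178 to 8446261, 9 members lay among 15 regions, of which 4 held an Otx2 peak and 2 were found in all 4 lists. On chromosome 10 from 8469934 to 8636800, 7 members lay among 21 regions, of which 8 held Otx2. On chromosome 6 from 22709992 to 22814896, 6 members lay among 12 regions, of which 2 held Otx2. Otx2 peaks were thus interspersed with members in these 3 stretches.

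On chromosome 28 from 2318224 to 2370030, 7 members lay within 51.8 kb among 12 regions, and 1 region held an Otx2 peak, at 30 min only. Folds in this group ran from 3.94 to 22.6, with medians of 7.52 at 30 min and 8.58 at 25 min. Its median background was at the genome-wide level at both times. It was the shortest of the 5 largest groups.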

How the data were processed

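The authors deposited 1 peak list per library, in the layout for narrow peaks and with no header. Per the submitters' processing notes, galGal5, Bowtie2, SAMtools, deepTools and MACS2 were used. Versions, settings, duplicate handling and the control are not given in the sources used here. The deposited fold enrichment is a ratio at the summit, and p and q were deposited as −log10 values. In 100% of peaks the deposited score is −log10 q times 10, with decimals dropped.

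Fold, −log10 p and q are the authors' values and were used within a list. Summit reads and background were recovered as a whole number of reads k and a background λ such that fold is (ck + 1)/(λ + 1), where the added 1 is a pseudocount, and p is the Poisson tail above ck. The library scale c was 0.845 for Otx2 at 30 min and 1 for the others. All peaks matched within 0.002, and the smallest fitting k was taken. Background is given relative to the smallest in its library. Where a list had several peaks in a region, the one with the highest −log10 q was used. Joining was tested on simulated regions set far apart and returned the class counts that were put in. Peaks that barely touch were not simulated. Read recovery was also run on simulated reads, over a narrower range of reads than the lists hold.

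Shares carry Wilson 95% intervals, medians an interval from order statistics, and differences of shares a Newcombe interval. All cover counting error over regions only. No p-values were computed, because each antibody and time has 1 library. Named regions are the 12 members with the highest smaller −log10 q, the 5 with the highest smaller fold over a background under 2 times (all among the 12), the 5 with the highest background, the 5 on either side of the rule's limit, the 3 with the largest and the 3 with the smallest ratio of folds, the 3 farthest from Otx2, and the 5 largest groups. Others were named after their values were seen. The members, the lists and these rules were chosen with earlier results of these data known. Analyses used Python 3.11.15, pandas 2.3.3, numpy 2.4.6, scipy 1.17.1 and matplotlib 3.10.9. Motifs and gene positions were not analysed here. Alternatives are listed in the closing section.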

Additional observations from a re-analysis of the deposited data

How the results depend on the processing

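The number of members (2400), the share without Otx2 among regions with Oc1 at both times, median folds, median summit distance, median gap to Otx2, the share on chromosomes 11 and up, shares with raised background, and the share with another member within 50 kb were recomputed under 14 settings. A value counted as moved when it left its own 95% interval, and a number of members when it changed by over 1.5 times. Of 161 values, 93 held and 68 moved. Joining at 50% of the shorter peak or across gaps of nucleosome length, asking for no Otx2 summit within 250 bases, and leaving out the largest group moved none. The last setting, the minimum of 10 reads and the differences between classes were chosen after seeing the data.

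Joining across 1000 bases gave 37.9% without Otx2, a summit distance of 54 bases, a gap of 24587 bases and 32.1% with a neighbour. A −log10 q of at least 5 in all lists left 1546 members and gave 45.5%, folds of 7.85 and 7.58 at 30 and 25 min, 43.5 bases, 30952 bases, 22.6% with raised background at 30 min and 27.6% with a neighbour. In the Oc1 lists alone, that cut left 1078 members, 31.7%, folds of 7.56 at both times (7.5633 and 7.56344), 43 bases, 34.4% with raised background at 25 min and 20.2% with a neighbour. The direction in which this share moved thus depended on whether the Otx2 lists were cut too. At least 6 reads in all lists gave 41.6%, folds of 7.19 and 6.92, 46 bases, 27236 bases, backgrounds of 26.7% and 41.9%, and 30.8% with a neighbour. Lists of equal length gave 41.3%, folds of 6.68 and 6.35, 23006 bases and 35.5% with raised background at 25 min.

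The lists of 30 min alone gave 7017 members, 65.9%, a fold of 5.33, 33016 bases, 14.2% with raised background and 62.7% with a neighbour. Those of 25 min alone gave 5565, 57.2%, 5.28, 24976 bases, 33.2% and 57.6%. Without raised backgrounds, 1277 members, 46.7%, 54 bases and 21.8% with a neighbour remained. At least 10 Oc1 reads left 414 members, 22.8%, folds of 9.35 and 9.90, 36 bases, 28.0% on chromosomes 11 and up, backgrounds of 41.3% and 52.9%, and 11.4% with a neighbour. Counting from chromosome 13 gave 20.7%.

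On chromosomes 11 and up, members minus the mirror class moved to -6.24 points at 25 min alone and -5.91 with 10 Oc1 reads. Members minus regions of all 4 lists moved to -7.44 without raised backgrounds and -0.99 with 10 reads. For neighbours within 50 kb, members minus the mirror class was -6.37 points at 30 min alone, -13.97 at 25 min alone, -22.2 with 6 reads, -23.1 without raised backgrounds, -39.0 with the cut in the Oc1 lists and -53.2 with 10 Oc1 reads. The settings change the numbers of regions in both classes unequally, and these shares depend on those numbers. No direction reversed.

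No paired analysis was possible because each antibody and time has 1 library and no test was made. Summit distances have no value from 1 time alone, shares with raised background none once such regions are left out, and differences between classes were not run for the setting of 250 bases. The low reads per peak limit what absence of Otx2 can show.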
